A study of Rattus norvegicus with 6 samples.

Results

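The genes described here are 37 chemokines, cytokines, leukocyte adhesion molecules and their receptors, followed in the liver of rats given 1-amino-2,4-dibromoanthraquinone (ADBAQ), an anthraquinone with an amino group and bromine atoms. They were taken from a list of gene names that was chosen with earlier results of these data known. Every non-control probe whose RefSeq accession belongs to one of them was used. Of the 37 genes, 36 had at least 1 named probe, 58 probes in all, among the 15284 genes named on the array; Il1r1, which encodes the signalling receptor of interleukin 1, had no named probe. The study set 3 ADBAQ rats against 3 vehicle rats, with 1 liver array per rat.

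All 6 animals were male Sprague-Dawley rats, bought at 5 weeks of age and kept on a basal diet. The ADBAQ rats received 1000 mg/kg/day. The controls received only the vehicle, which is purified water by one label and corn oil by another. The duration of dosing is given as 28 days in one place and as 9 weeks in another, so the age at sampling is not settled. The RNA came from whole liver, a mixture of hepatocytes, resident macrophages (Kupffer cells), sinusoidal endothelium, stellate cells, bile duct cells and blood leukocytes, so for any gene fewer cells of a type and less RNA per cell cannot be told apart.

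Chemokines are small secreted proteins that draw leukocytes along a concentration gradient through receptors coupled to G proteins. In the liver they are made by Kupffer cells, stellate cells, endothelium and stressed hepatocytes, and many are transcribed through NF-kB or interferon-responsive factors. Interleukin 6 acts on hepatocytes through its receptor chain Il6r and the shared signalling chain Il6st (gp130), which activate STAT3 and drive the acute phase proteins of the blood.

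The arrays carried a wide difference between the groups, so each count of the listed genes is given beside the same count over all genes. The processed signal had a 75th percentile of 643, 570 and 596 on the ADBAQ arrays and 455, 461 and 433 on the vehicle arrays, and 64.3% to 65.3% and 62.1% to 62.8% of probes were well above background. Each slide and each scan day held arrays of 1 group only, so slide, scan day and treatment cannot be told apart. Of 11344 genes tested, 2308 (20.3%) passed an adjusted p of 0.05 in limma, 1027 (9.05%) higher and 1281 (11.3%) lower in ADBAQ livers. The share of calls that were higher was 44.5% as reported, 34.4% after normexp background correction and 97.9% after scaling to spike-in controls, which moved the median of all genes up by 0.76 on the log2 scale, to a median of 0.72.

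Of the 36 listed genes with a probe, 29 were tested, meaning that a probe was well above background in all 3 rats of the ADBAQ group, the vehicle group or both. Of these, 29 were well above background on all 3 ADBAQ arrays and 27 on all 3 vehicle arrays. Il6, Il10ra, Ccr1, Ccl20 and Sele did not clear background in any rat. Il10 was well above background on 2 ADBAQ arrays and 1 vehicle array, and Ccr2 on 1 array of each group. The ligand interleukin 6, the endothelial selectin Sele, and both Ccr1 and Ccr2, receptors for inflammatory CC chemokines, therefore have no measured change here.

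Of the 29 tested genes, 11 passed the test (37.9%, against 20.3% of all genes). Of the 29, 8 rose in ADBAQ livers (27.6%, against 9.05% of all genes) and 3 fell (10.3%, against 11.3%). Because the list was chosen with earlier results of these data known, these shares describe the listed genes and are not a test of the list. Ccl7 and Cxcl2 entered the test through the ADBAQ arrays alone. Among genes well above background on all 6 arrays, 6 of 27 listed genes rose (22.2%, against 9.42% of all such genes). Without 1 array the number that rose was 2 without ADBAQ rat 1, 2 or 3, 3 without vehicle rat 2, 4 without vehicle rat 3 and 6 without vehicle rat 1, against 3.48% to 6.16% of all genes. The genes that rose were the chemokines Ccl2, Ccl7, Ccl3, Ccl4, Cxcl2 and Cxcl10, the cytokine Tnf and the adhesion molecule Icam1. The genes that fell were the chemokine Cxcl12 and the receptor chains Il6r and Il6st, the last of which was higher by 0.076 when arrays were scaled to spike-in controls. In 12 of the 29 genes (41.4%) the ADBAQ and vehicle arrays did not overlap, against 46.3% of all genes. Of the 29 tested genes, 9 lay wholly higher in ADBAQ livers (31.0%, against 21.2% of all genes) and 3 wholly lower (10.3%, against 25.1%). The median log2 fold change of the 29 was 0.10, against -0.04 over all genes.

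**Figure D1:**
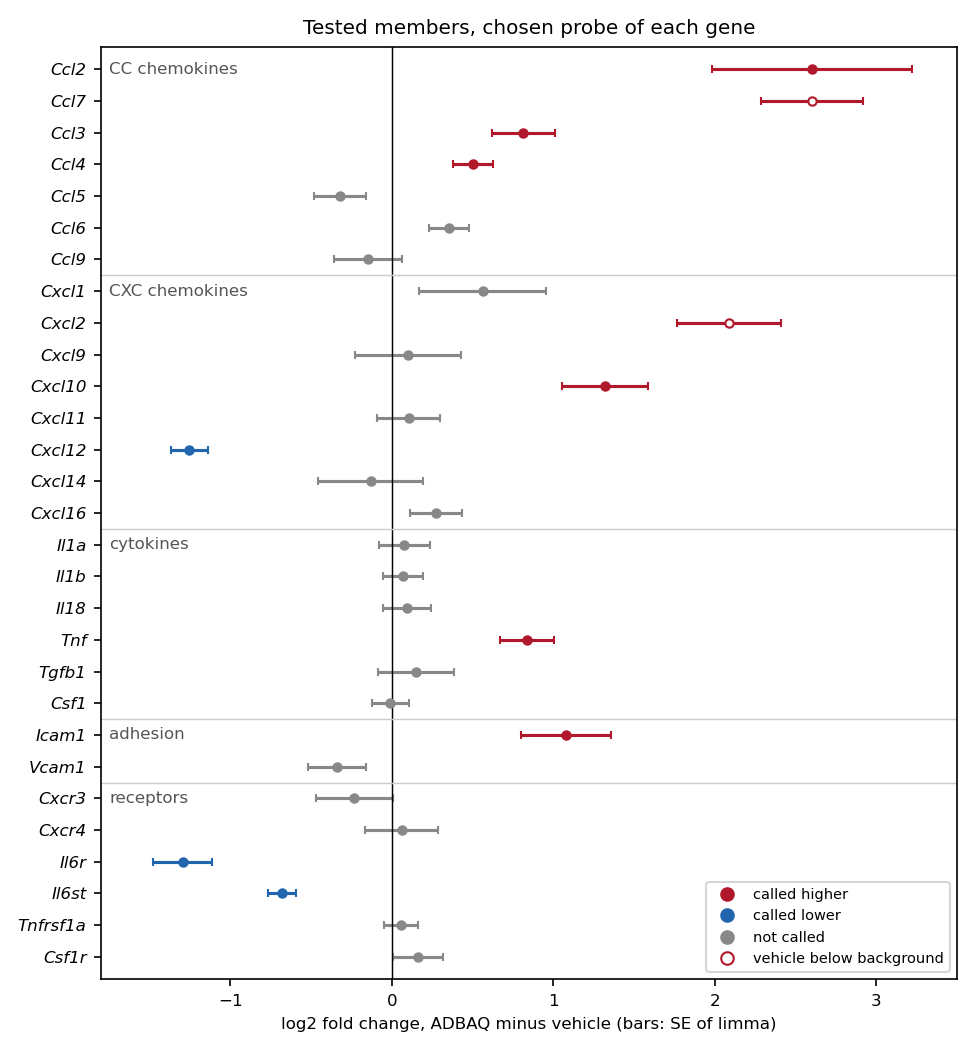
Log2 fold change (ADBAQ minus vehicle, x axis) of the 29 tested genes, 1 probe per gene, with the standard error of limma as bars; red marks genes that rose, blue genes that fell, grey genes that did not pass the test, and open points genes below background in vehicle. Ccl2 lies at 2.60 and Il6r at -1.30. The open points of Ccl7 and Cxcl2 are fitted values, with bounds, defined with Ccl7 below, of 1.88-fold and 3.12-fold.

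Values below are log2 signals relative to the 75th percentile of the same array, so that 0 is a signal at that percentile. Each change is the ADBAQ mean minus the vehicle mean ± the moderated standard error of limma, with n = 3 rats per group and p adjusted by Benjamini-Hochberg over all probes tested. The level of one gene's probe is not ranked against another's; where a difference between 2 probes on the same array is given, what is compared is that difference between the groups.

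Among the CC chemokines, the monocyte attractants Ccl2 and Ccl7 rose, with a size that varied with processing for Ccl2 and a lower bound for Ccl7. Ccl2 (MCP-1), the main ligand of Ccr2, was at 0.50, 0.13 and 0.23 on the ADBAQ arrays and at -3.85, -1.59 and -1.51 on the vehicle arrays. The groups did not overlap, and vehicle rat 1 lay far below the other vehicle rats. Its median spot signal was 67 beside a local background of 57. The change was 2.60 ± 0.62 (adjusted p = 0.0363), 6.06-fold. Without vehicle rat 1 it was 1.83 with an adjusted p of 0.00794. Leaving out any of the other 5 arrays gave 2.49 to 3.00 with the call lost. After normexp background correction the Ccl2 change was 1.90 (adjusted p = 0.00598).

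Ccl7 (MCP-3), another monocyte attractant and the direct neighbour of Ccl2 on chromosome 10, was at -3.87, -4.63 and -4.31 on the ADBAQ arrays and at -7.33, -7.02 and -6.26 on the vehicle arrays. It was well above background on all 3 ADBAQ arrays and on no vehicle array. The fitted change was 2.60 ± 0.32 (adjusted p = 0.0070), and by the bound used here Ccl7 was at least 1.88-fold higher in ADBAQ livers. This bound sets the ADBAQ mean against, on each vehicle array, the lowest signal of any probe that cleared background, or the spot's own signal where higher. A spot can lie above that lowest signal and still not clear background. The Cxcl2 probe given below did so on vehicle array 3, at -4.88 against -5.18. This and the bounds given below are therefore not strict limits. The median spot signal was 74, 57.5 and 64 in ADBAQ against 33.5, 32 and 35.5 in vehicle, beside a local background of 53, 59 and 57 in ADBAQ and 54, 54 and 57 in vehicle. After normexp background correction the change was 0.09 (adjusted p = 0.318), so the call was lost. The other Ccl7 probe was well above background on 2 ADBAQ arrays and 0 vehicle arrays and was not tested. Its bound was 1.50-fold.

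Ccl3 and Ccl4 (MIP-1 alpha and beta), leukocyte attractants made by macrophages and lymphocytes, rose by less. Ccl3 was at 0.39, 0.41 and 0.32 in ADBAQ livers and at -0.73, 0.01 and -0.60 in vehicle livers, a change of 0.81 ± 0.20 (adjusted p = 0.0377). Ccl4 was at -0.58, -0.63 and -0.76 in ADBAQ livers and at -0.96, -1.15 and -1.35 in vehicle livers, a change of 0.50 ± 0.12 (adjusted p = 0.0406). In both genes the 3 ADBAQ arrays lay above the 3 vehicle arrays. The other probe of Ccl4 gave 0.49 ± 0.14 with an adjusted p of 0.0588. The Ccl3 call was lost without vehicle rat 1, vehicle rat 3 or any ADBAQ rat, and the Ccl4 call without vehicle rat 2, vehicle rat 3 or any ADBAQ rat.

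The remaining CC chemokines did not pass the test. Ccl6, a macrophage and granulocyte chemokine of rodents, was at 3.27, 2.95 and 2.87 in ADBAQ livers and at 2.68, 2.70 and 2.65 in vehicle livers. Its groups did not overlap, but the change of 0.35 ± 0.12 had an adjusted p of 0.0958. Ccl5 (RANTES), a T cell and monocyte attractant, changed by -0.32 (adjusted p = 0.199). Ccl9, a rodent chemokine that acts through Ccr1, changed by -0.15 (adjusted p = 0.645), and its other probe by -0.32 with no overlap (adjusted p = 0.103). In the rat genome Ccl5, Ccl9, Ccl6, Ccl3 and Ccl4 follow each other on chromosome 10 with 0 protein-coding genes between neighbours, and of these 5 genes 2 passed the test.

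**Figure D2:**
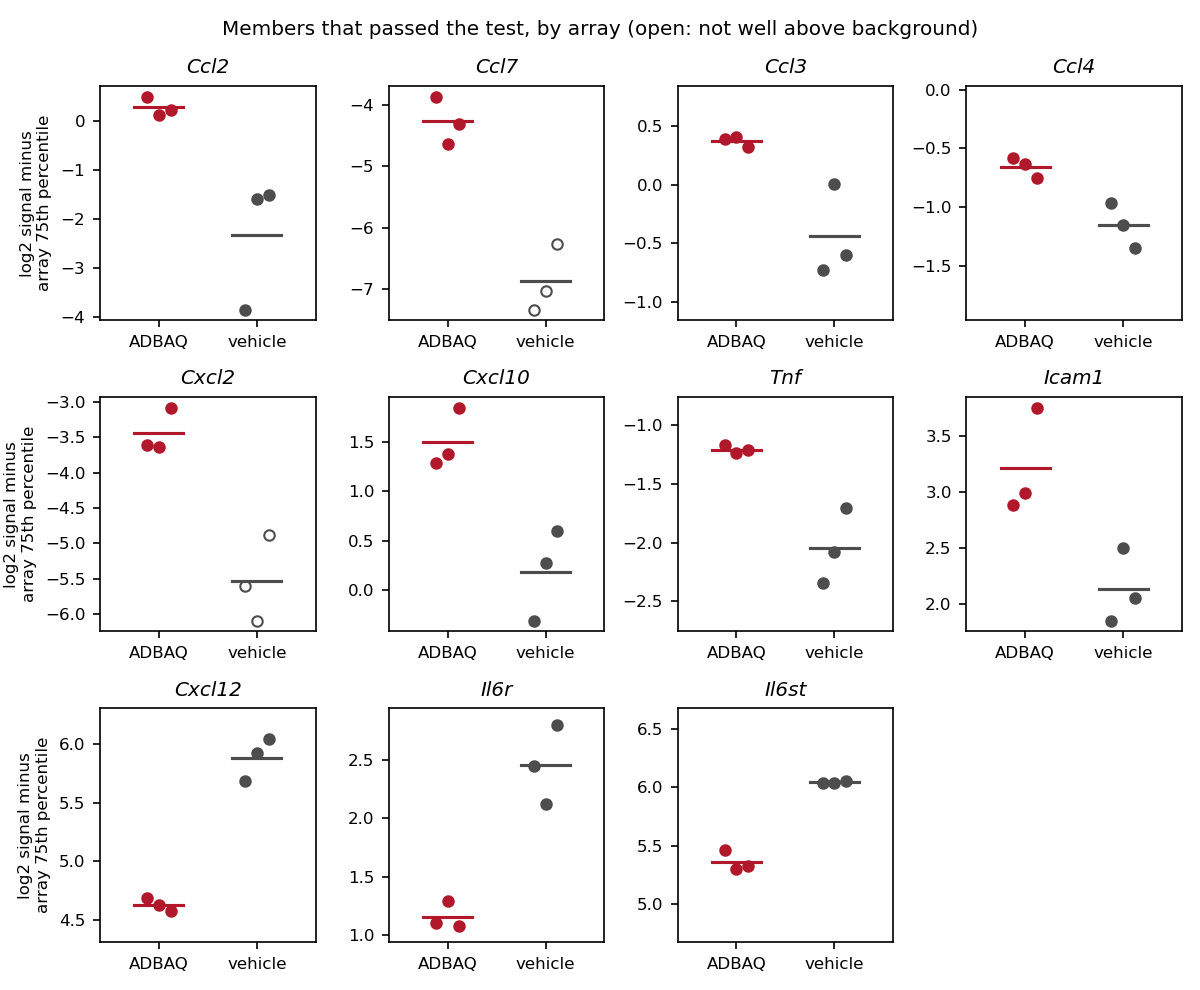
Log2 signal relative to the array's 75th percentile (y axis, a separate range in each panel) for the 11 genes that passed the test, 1 point per rat with the group mean as a line, ADBAQ left and vehicle right; open points were not well above background. ADBAQ and vehicle points do not overlap in any panel, and the lowest Ccl2 point is vehicle rat 1 at -3.85.

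The CXC chemokines fall into neutrophil attractants, ligands of Cxcr3 induced by interferon, and homeostatic ligands. Promoters are shown for the 5 genes of the first 2 kinds, which lie close together on chromosome 14 and did not all pass the test: Cxcl2 beside its direct neighbour Cxcl1, and Cxcl10 beside its direct neighbours Cxcl11 and Cxcl9. Each is the 250 bases before the annotated start, 5′ to 3′ on the gene's strand, from RefSeq on GRCr8. Capitals mark matches on either strand to the NF-kB motif (GGG, any 2 bases, TTTCC) in Cxcl2 (chr14:17467256-17467505, minus strand) and Cxcl1 (chr14:17479322-17479571, minus strand), and to the interferon response motif (GAAA, any 2 bases, GAAA) in Cxcl10 (chr14:15988816-15989065, plus strand). Cxcl9 (chr14:16006916-16007165, plus strand) and Cxcl11 (chr14:15973478-15973727, plus strand) hold neither of these exact patterns and have no capitals. Other forms of the NF-kB site were not searched, so a promoter without capitals may still hold one.
Cxcl2: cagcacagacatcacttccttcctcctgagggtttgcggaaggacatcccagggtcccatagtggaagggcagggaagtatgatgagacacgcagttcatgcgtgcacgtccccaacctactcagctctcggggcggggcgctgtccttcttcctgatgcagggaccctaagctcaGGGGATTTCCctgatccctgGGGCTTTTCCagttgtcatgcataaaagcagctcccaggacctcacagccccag
Cxcl1: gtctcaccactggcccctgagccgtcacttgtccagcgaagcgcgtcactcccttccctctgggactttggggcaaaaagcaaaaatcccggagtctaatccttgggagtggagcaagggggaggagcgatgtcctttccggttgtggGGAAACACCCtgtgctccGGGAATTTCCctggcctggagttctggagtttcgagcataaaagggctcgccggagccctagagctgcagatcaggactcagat
Cxcl10: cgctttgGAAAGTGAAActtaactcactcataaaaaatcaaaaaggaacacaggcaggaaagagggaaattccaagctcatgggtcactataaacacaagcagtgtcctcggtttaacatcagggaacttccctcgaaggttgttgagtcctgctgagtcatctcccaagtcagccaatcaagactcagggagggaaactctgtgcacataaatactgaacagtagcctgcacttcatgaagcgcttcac
Cxcl9: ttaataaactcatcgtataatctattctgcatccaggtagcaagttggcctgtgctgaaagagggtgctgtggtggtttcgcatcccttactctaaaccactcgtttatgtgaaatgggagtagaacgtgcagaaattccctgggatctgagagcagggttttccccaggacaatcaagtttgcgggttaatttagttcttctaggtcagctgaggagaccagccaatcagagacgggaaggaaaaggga
Cxcl11: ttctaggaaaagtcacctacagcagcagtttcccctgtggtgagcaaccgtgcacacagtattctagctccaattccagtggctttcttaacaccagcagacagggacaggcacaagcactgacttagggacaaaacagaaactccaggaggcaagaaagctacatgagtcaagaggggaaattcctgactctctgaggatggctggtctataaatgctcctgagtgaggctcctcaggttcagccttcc

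The NF-kB letters began at -74 and -54 from the start in Cxcl2 and at -102 and -84 in Cxcl1, and the interferon response letters at -243 in Cxcl10. Over all 27457 rat promoters of this length in the table, 351 (1.28%) held the NF-kB letters and 902 (3.29%) the interferon response letters. Of the 31 listed genes with a promoter in the table, the first was in 5, namely Cxcl1, Cxcl2, Ccl9, Ccl20 and Il6, and the second in 3, namely Cxcl10, Vcam1 and Il6st. Of the 8 genes that rose, 5 were searched, and of these 5 Cxcl2 held the exact NF-kB letters given above. Ccl2, Ccl3 and Ccl4 were not searched. GCGTG, the core bound by the aryl hydrocarbon receptor, was in 13 of the 31, against 27.2% of all promoters. Both strands were searched, no match of one motif overlapped one of another in the sequences shown, and a match is a description of the letters alone.

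Cxcl2 (MIP-2), a neutrophil attractant that acts on Cxcr2, was at -3.60, -3.63 and -3.08 in ADBAQ livers and at -5.61, -6.09 and -4.88 in vehicle livers. All 3 ADBAQ arrays and no vehicle array were well above background. The fitted change was 2.09 ± 0.32 (adjusted p = 0.0117), and Cxcl2 was at least 3.12-fold higher in ADBAQ livers. Its other probe gave 1.48 ± 0.10 (adjusted p = 0.00148), at least 1.50-fold higher. The median spot signal of the first probe was 86, 75 and 93.5 in ADBAQ against 37, 34 and 44 in vehicle. After normexp the change of that probe was 0.19 (adjusted p = 0.134).

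Cxcl1, its neighbour and a ligand of the same receptor, was at -0.15, -0.10 and 1.14 in ADBAQ livers and at 0.21, -0.52 and -0.49 in vehicle livers. The groups overlapped, ADBAQ rat 3 was high, and the change of 0.56 ± 0.39 did not pass (adjusted p = 0.347).

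Cxcl10 (IP-10), a ligand of Cxcr3 that draws activated T cells and NK cells, was at 1.28, 1.38 and 1.85 in ADBAQ livers and at -0.31, 0.27 and 0.60 in vehicle livers. The 2 sets did not overlap, and the change was 1.32 ± 0.26 (adjusted p = 0.0226), 2.50-fold. The other Cxcr3 ligands, Cxcl9 and Cxcl11, changed by 0.10 (adjusted p = 0.853) and 0.10 (adjusted p = 0.736). Within each array, Cxcl10 minus Cxcl9 was 1.23, 0.61 and 0.97 in ADBAQ and -0.23, -0.22 and -0.39 in vehicle, so the groups differed by 1.22 in this difference. Cxcl10 minus Cxcl11 differed by 1.22 as well, and for both the exact two-sided permutation test gave p = 0.1, the smallest that 3 against 3 allows. Both differences reuse the Cxcl10 values above, whose groups were already apart, and are not separate support. The Cxcl10 call was lost without vehicle rat 2 or any ADBAQ rat, at adjusted p up to 0.0669. Cxcr3 itself changed by -0.23 (adjusted p = 0.519).

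Cxcl12 (SDF-1), the ligand that holds leukocytes and progenitors through Cxcr4 and is made by hepatic stromal and endothelial cells, fell. The brightest probe, matched to NM_001033883, was at 4.68, 4.63 and 4.57 in ADBAQ livers and at 5.69, 5.93 and 6.04 in vehicle livers. Every ADBAQ array lay below every vehicle array, and the change was -1.26 ± 0.12 (adjusted p = 0.0034). The 2 probes matched to the other transcript, NM_022177, gave -0.79 ± 0.11 and -0.83 ± 0.12, both with an adjusted p of 0.00982. The first probe minus the brighter NM_022177 probe was 0.57, 0.58 and 0.70 in ADBAQ and 0.99, 0.97 and 1.28 in vehicle, a difference of -0.46 between the groups (exact two-sided permutation p = 0.1, the smallest possible). With the dimmer NM_022177 probe the difference was -0.43 (exact permutation p = 0.1). Both differences reuse the Cxcl12 values above and are not separate support. Whether the probes tell the 2 transcripts apart was not tested. The Cxcl12 call held without each array in turn, and the change was -0.50 and still called with spike-in scaling.

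Cxcr4, the signalling receptor of Cxcl12, changed by 0.06 (adjusted p = 0.87). Ackr3, a receptor that takes up and removes Cxcl12, was listed among the other chemokine receptors and rose by 0.78 (adjusted p = 0.0493), a call lost after normexp, where the change was 0.08 (adjusted p = 0.584). Cxcl14, a chemokine of epithelia, changed by -0.13 on its brightest probe (adjusted p = 0.803) and by -1.02 ± 0.55 on another (adjusted p = 0.234). Cxcl16, a membrane-bound scavenger and ligand of Cxcr6, changed by 0.27 (adjusted p = 0.265).

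Of the 6 cytokines tested, only Tnf, the macrophage cytokine that activates NF-kB in neighbouring cells, passed. It was at -1.17, -1.24 and -1.21 in ADBAQ livers and at -2.34, -2.08 and -1.70 in vehicle livers, with no overlap. The change was 0.83 ± 0.17 (adjusted p = 0.0227), 1.78-fold, and the other Tnf probe did not clear background in any rat. After normexp background correction the Tnf change was smaller, at 0.39 (adjusted p = 0.0371). The call was lost without vehicle rat 2 or any ADBAQ rat, at adjusted p up to 0.0751. Il1a and Il1b, the interleukin 1 ligands, changed by 0.08 and 0.07, Il18 by 0.09, Tgfb1 by 0.15 and the macrophage growth factor Csf1 by -0.01, none of them past the threshold.

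Of the adhesion molecules on activated endothelium, Icam1, the ligand of leukocyte integrins, was at 2.88, 2.99 and 3.75 in ADBAQ livers and at 1.85, 2.50 and 2.05 in vehicle livers. The change was 1.08 ± 0.28 (adjusted p = 0.0437), 2.11-fold, with no overlap. This call was lost whichever of the 6 arrays was left out (adjusted p up to 0.111), without the filter on dim probes (0.051) and with array weights (0.0556). Vcam1, which binds integrin alpha 4, changed by -0.34 (adjusted p = 0.228).

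Both chains of the interleukin 6 receptor were lower in ADBAQ livers. Il6r, the chain that binds the ligand, was at 1.11, 1.29 and 1.08 in ADBAQ livers and at 2.45, 2.12 and 2.80 in vehicle livers, a change of -1.30 ± 0.18 (adjusted p = 0.00951). Before scaling, the processed signal was 1384, 1397 and 1262 in ADBAQ and 2482.5, 2004 and 3010.3 in vehicle. The groups were apart with and without scaling.

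Il6st (gp130), which also serves the receptors of oncostatin M, LIF and interleukin 11, was at 5.47, 5.30 and 5.33 in ADBAQ livers and at 6.04, 6.04 and 6.05 in vehicle livers. The change was -0.68 ± 0.09 (adjusted p = 0.00786). Of its other probes, 2 gave -0.54 (adjusted p = 0.0203) and -0.53 (adjusted p = 0.0347), and the last gave -0.45 ± 0.35 with overlapping groups (adjusted p = 0.401). The processed signal before scaling was 28412, 22468 and 23900 in ADBAQ and 29920, 30336 and 28715 in vehicle, so the unscaled groups were close. With spike-in scaling the change was 0.076 (adjusted p = 0.506). Il6r minus Il6st within an array differed by -0.62 between the groups (exact two-sided permutation p = 0.1, the smallest possible). Adjusted over the 5 within-array differences computed, this permutation p was also 0.1. The difference reuses the Il6r and Il6st values above and is not separate support.

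The other receptors did not pass. Tnfrsf1a, the main receptor of Tnf, changed by 0.06, and Csf1r, the receptor of Csf1 carried by macrophages, by 0.16 (adjusted p = 0.489). Over all 18 tested genes that did not pass, changes ran from -0.34 to 0.56 and adjusted p from 0.0958 to 0.955.

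**Figure D3:**
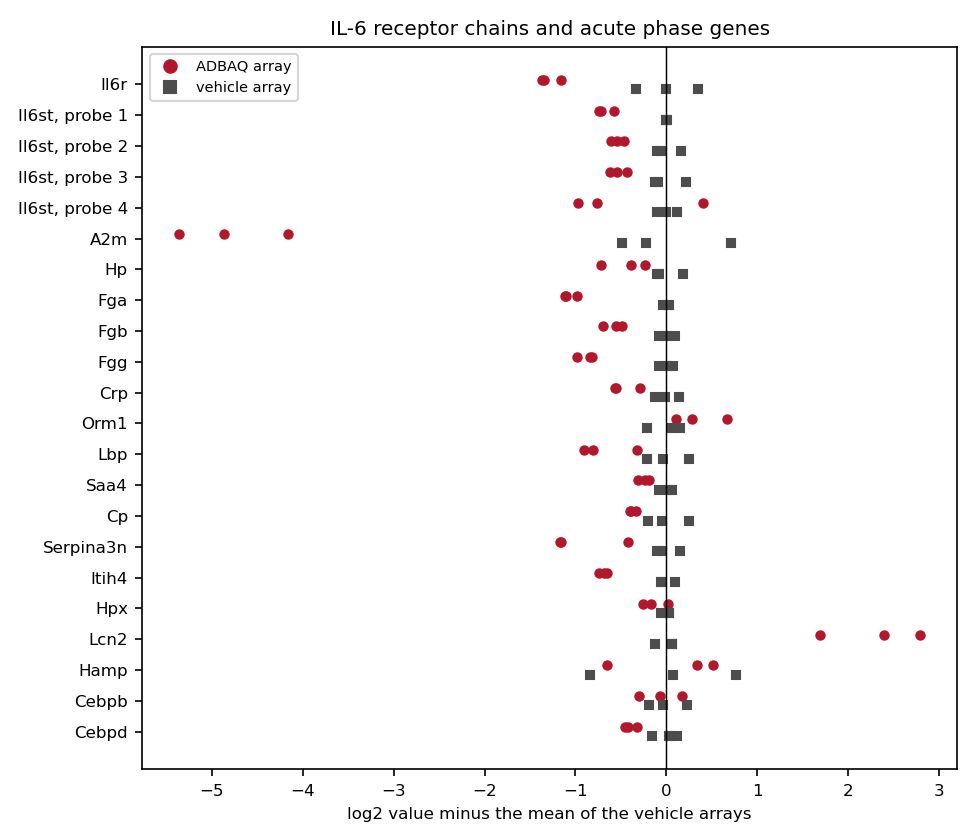
Log2 signal of Il6r, 4 probes of Il6st and the tested genes of the acute phase list, each minus the mean of the vehicle arrays (x axis), 1 point per array, ADBAQ in red above vehicle in grey. The ADBAQ points of A2m lie far to the left (mean change -4.80) and those of Lcn2 to the right (2.29), and those of Il6r and of 3 of the 4 Il6st probes lie left of the vehicle points.

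Genes of the acute phase list were lower more often than higher: of 17 tested, 1 rose and 8 fell. Their median change was -0.45 against -0.04 over all genes. For this list and those below, the shares over all genes were 9.05% higher and 11.3% lower. A2m, which encodes alpha-2-macroglobulin, an acute phase protein in rats, was at -0.70, -1.20 and -0.00 in ADBAQ livers and at 4.87, 3.93 and 3.68 in vehicle livers, a change of -4.80 ± 0.41 (adjusted p = 0.00297). The fibrinogen chain Fga changed by -1.07 (adjusted p = 0.00251) and the protease inhibitor Serpina3n by -0.92 (adjusted p = 0.0371). Lcn2, an iron-siderophore binding protein that is also a target of NF-kB, rose by 2.29 (adjusted p = 0.00646). Hepatocyte markers moved the same way: 6 of 8 fell and 0 rose, and their summed level, in units of the 75th percentile, was 4352 to 4664 in ADBAQ and 5977 to 6390 in vehicle, with all 8 detected. Among them the apolipoproteins Apoc3 and Apob changed by -1.17 and -0.67, the vitamin E transfer protein Ttpa by -0.77 and the protease inhibitor Serpina1 by -0.57, while with spike-in scaling Apob changed by 0.083 and Serpina1 by 0.19. The part of hepatocyte RNA in the acute phase result was not tested. Of 14 JAK-STAT genes, 0 rose and 1 fell in limma (5 at an unadjusted p under 0.05): Pias1, an inhibitor of STAT proteins, changed by -0.37 (adjusted p = 0.0473), or by 0.38 with spike-in scaling. Stat3 changed by -0.52 (adjusted p = 0.0692) and its feedback inhibitor Socs3 by -0.03 (adjusted p = 0.912).

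Of 64 tested chemokines, cytokines and receptors outside the 37 genes, 7 rose (10.9%, against 9.05% of all genes) and 7 fell (10.9%, against 11.3%). Among these calls, Ccl1 and Osmr entered the test through the ADBAQ arrays alone, and Tgfb2 through the vehicle arrays alone. Of 15 other chemokines tested, 3 rose and 0 fell, with a median of 0.25. These were Ccl1 (2.24 ± 0.43, adjusted p = 0.0208, well above background on 2 of 3 vehicle arrays), Ccl17 (1.62 ± 0.32, adjusted p = 0.0212) and Ccl19 (0.58, adjusted p = 0.0364), attractants of T cells and dendritic cells through Ccr8, Ccr4 and Ccr7. Of 7 other chemokine receptors tested, Ackr3 rose and Ccr6, the receptor of Ccl20, fell by 0.79 (adjusted p = 0.0212), with a median of -0.11.

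Of 19 other cytokines, 0 rose and 4 fell, with a median of -0.35. Il1rn, the antagonist that blocks the interleukin 1 receptor, was at 0.73, 1.15 and 1.42 in ADBAQ livers and at 3.33, 2.36 and 2.61 in vehicle livers, a change of -1.67 ± 0.29 (adjusted p = 0.0159). Il33, an alarmin of barrier and stromal cells, changed by -1.13 (adjusted p = 0.0185) and Tgfb3 by -0.77 (adjusted p = 0.00831). Tgfb2 was at least 1.84-fold lower in ADBAQ livers, where no array was well above background (adjusted p = 0.00982).

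Of 23 other cytokine receptors, 3 rose and 2 fell, with a median of -0.06. Fas, a death receptor, rose by 0.85 (adjusted p = 0.00552). Osmr, the oncostatin M receptor chain that pairs with Il6st, was at least 1.56-fold higher in ADBAQ livers (adjusted p = 0.0325) with no vehicle array well above background, and changed by -0.02 after normexp. The third, Tnfrsf1b, the inducible receptor of Tnf, changed by 0.40 (adjusted p = 0.0494). Tgfbr3, a co-receptor of TGF-beta, changed by -0.79 (adjusted p = 0.00974), and Il11ra1, the interleukin 11 receptor chain, by -0.65 (adjusted p = 0.0435), or by 0.11 with spike-in scaling.

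Of 19 genes of NF-kB and Toll-like receptor signalling, 2 rose and 2 fell, with a median of 0.15. These counts are close to the shares over all genes (9.05% higher and 11.3% lower). Ikbkg (NEMO), a regulatory subunit of the kinase that frees NF-kB, rose by 1.34 (adjusted p = 0.00724) and Birc3, an NF-kB target, by 0.59 (adjusted p = 0.0202). Myd88, the adaptor of Toll-like and interleukin 1 receptors, changed by -0.52 (adjusted p = 0.0435) and the kinase Ripk1 by -0.46 (adjusted p = 0.0281), but with spike-in scaling by 0.23 and 0.30. Of 8 further leukocyte adhesion genes, 2 rose and 0 fell: Cd44, a hyaluronan receptor, by 1.02 (adjusted p = 0.00683), and Itgb7, an integrin chain of gut-homing lymphocytes, by 0.63 (adjusted p = 0.00948).

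Several of these calls outside the 37 genes were lost with other processing. With spike-in scaling the change was -0.032 for Ccr6, -0.37 for Il33, -0.30 for Tgfb2, -0.016 for Tgfb3, -0.033 for Tgfbr3, -0.16 for Serpina3n and -0.013 for Ttpa, with adjusted p from 0.106 (Tgfb2) to 0.91 (Ttpa). After normexp it was 0.37 for Ccl17 (adjusted p = 0.0505) and 0.20 for Itgb7 (adjusted p = 0.0658). With quantile normalization it was -0.56 for Serpina3n (adjusted p = 0.118), -0.20 for Serpina1 (adjusted p = 0.127), -0.46 for Myd88 (adjusted p = 0.0705) and -0.35 for Pias1 (adjusted p = 0.0534). Il11ra1, Myd88 and Pias1 also lost their calls with median centring, Pias1 with the mean of its probes, and Ackr3 without the filter on dim probes and with array weights. Of the pathway and cell type genes chosen by rule (also 37), 15 passed without each array in turn, among them A2m, Lcn2, Fga, Fas, Ikbkg, Cd44, Itgb7, Tgfb2, Tgfb3 and Tgfbr3. The call was lost without at least 1 array in 22. Among these 22, of the 6 settings that each left out 1 array, Ripk1, Pias1, Pax5, Oit3 and Epcam kept the call in 0. Ccl19, Birc3, Serpina3n, Ackr3, Osmr, Il11ra1, Myd88, Cd8a, Cd83 and Clec9a kept it in 1. Ccl1 kept it in 2. Ccl17, Il33, Ccr6, Cftr and Krt7 kept it in 3, and Il1rn kept it in 5.

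Markers of the cells that make or follow chemokines were measured in the same livers. Of 11 Kupffer cell markers, 1 rose (Lyz2, lysozyme, by 0.88, adjusted p = 0.0122) and 0 fell; their summed level was 158 to 179.7 in ADBAQ and 137 to 164 in vehicle. Of 4 neutrophil markers tested, 0 passed in limma and 0 had an unadjusted p under 0.05; the sum was 1.63 to 3.24 in ADBAQ and 1.28 to 2.02 in vehicle, and Elane and Ngp stayed below background in all 6 rats. Of 7 T cell markers, only Cd8a passed, with a change of -0.85 (adjusted p = 0.0451), with sums of 1.55 to 1.87 in ADBAQ and 1.76 to 2.00 in vehicle and with Cd28 and Cd5 below background throughout. The summed levels overlapped between the groups for all 3 cell types.

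Of 6 NK cell markers, 0 passed and 0 had an unadjusted p under 0.05, with sums of 2.84 to 3.40 in ADBAQ and 3.06 to 3.69 in vehicle. Of 5 B cell markers, Pax5 alone passed (-0.66), with sums of 1.36 to 1.56 in ADBAQ and 1.87 to 2.27 in vehicle, apart from each other. Most of each B cell sum came from the Pax5 probe, so the sums largely repeat the Pax5 result. The other 4 B cell markers did not pass. Of 3 dendritic cell markers, Cd83 rose by 0.73, Clec9a changed by -0.70 and Batf3 by -0.14 (adjusted p = 0.595). The sums were 1.27 to 1.65 in ADBAQ and 1.00 to 1.24 in vehicle, and Xcr1 was below background throughout. Most of each dendritic cell sum came from the Cd83 probe, so the sums largely repeat the Cd83 result. Of 7 sinusoidal endothelial markers, Oit3 alone passed (-0.53), with sums of 40.3 to 49.5 in ADBAQ and 48.7 to 53.8 in vehicle. Of 10 stellate cell markers, 0 passed in limma (3 at an unadjusted p under 0.05), with sums of 32.1 to 36.1 in ADBAQ and 34.3 to 46.5 in vehicle. Of 5 cholangiocyte markers, Cftr (0.83) and Epcam (0.82) rose and Krt7 changed by -0.61, with sums of 2.45 to 3.84 in ADBAQ and 1.57 to 1.87 in vehicle. Most of each cholangiocyte sum came from the Epcam probe. With spike-in scaling Pax5 changed by 0.09, Clec9a by 0.06, Oit3 by 0.23 and Krt7 by 0.14, and Cd8a by -0.098 (adjusted p = 0.664). After normexp Cftr changed by 0.14 (adjusted p = 0.244), and Oit3 also lost its call with quantile normalization. The part of these cells in the chemokine and cytokine changes was not tested.

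**Figure D4:**
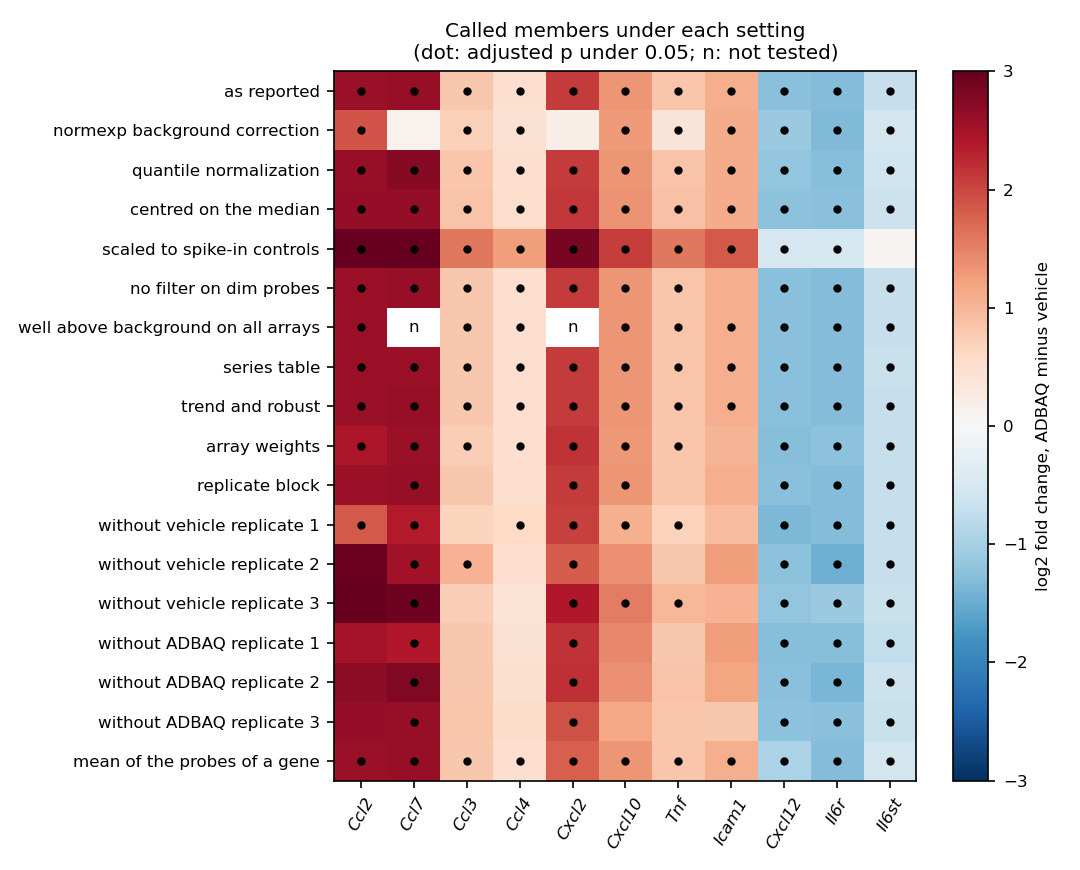
Log2 fold change (ADBAQ minus vehicle, colour) of the 11 genes that passed the test (x axis) under each processing setting (y axis); a dot marks an adjusted p under 0.05 and n a gene that was not tested. Cxcl12 and Il6r keep a dot in every setting shown, Il6st loses it with spike-in scaling, and Icam1 loses it when any 1 array is left out.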

How the data were processed

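Liver RNA of 3 ADBAQ and 3 vehicle rats was hybridised to 1-colour Agilent arrays, 1 per rat, read with Agilent Feature Extraction 10.7.1.1 per the file headers (10.7 per the submitters' processing notes); the array design was built on rn4. The deposited scanner files hold linear intensity values, the processed signal being background-subtracted. Flags, of the kind other, mark spots well above background, saturated or outlying, per the file headers. The deposited series table holds a ratio, which on comparison with the scanner signals of the same array was the processed signal over its 75th percentile; the medians of its columns were 0.0929, 0.0971 and 0.0952 for ADBAQ and 0.0967, 0.097 and 0.0982 for vehicle.

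Each array had 61657 probes, of which RefSeq accessions named 27460 and left 34197 unnamed. No member spot was left out as an outlier, and 0 were saturated. Values are log2 processed signals, from which log2 of that array's 75th percentile was subtracted. Probes well above background in all 3 rats of either group (38695) were tested with limma 3.58.1 in R 4.3.3 (lmFit, eBayes), Benjamini-Hochberg adjusted, at a threshold of 0.05. A gene was its kept probe with the highest mean signal. The number of arrays limits the precision. The script was tested on simulated data.

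The members and lists were chosen with earlier results of these data known. Members that passed or did not overlap are given by sample, the others by value, range or count; from each pathway list up to 4 passing genes with the largest changes and no overlap were eligible, and from each cell type list the passing genes, up to 4, with further genes (Stat3, Socs3, Tnfrsf1b) chosen after their values were seen. Replicate numbers in the labels did not pair the rats: same-numbered deviations correlated at -0.03, -0.02 and -0.00. Alternatives were other background corrections, scalings, filters, weights, the deposited table, a replicate block and leaving out each array. Slide and scan day could not be fitted as a block.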

Additional observations from a re-analysis of the deposited data

How the results depend on the processing

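As reported, 11 listed genes passed, 8 higher and 3 lower, with 30 pathway and adhesion genes. Leaving out each array in turn gave 5 to 9 listed genes, 2 to 6 of them higher and 3 to 3 lower, and 14 to 20 pathway genes. Over all genes, calls numbered 902 to 1547 in the same settings, against 2308. With replicate number as a block, 6 listed genes passed, 3 of them higher, 17 pathway genes and 982 genes in all; Ccl2, Ccl3, Ccl4, Tnf and Icam1 were lost, but the numbers share no pairing. With spike-in scaling, 25 passed, 23 higher, with 85 pathway genes and 9130 genes in all. Normexp gave 4049 calls over all genes and no filter 3533. Changes that turned sign with spike-in scaling were Ccl5 0.43, Ccl9 0.61, Cxcl14 0.63, Csf1 0.75, Vcam1 0.42, Cxcr3 0.52, Il6st 0.076, Il11ra1 0.11, Myd88 0.23, Ripk1 0.30, Pias1 0.38, Pax5 0.093, Clec9a 0.060, Oit3 0.23, Krt7 0.14, Apob 0.083 and Serpina1 0.19. With normexp they were Cxcl9 -0.10, Tgfb1 -0.021, Csf1 0.033, Cxcr4 -0.13 and Osmr -0.021; the median spot signal was used in place of the mean. Median centring turned Csf1 (0.024), array weights Cxcr4 (-0.032), and the mean of a gene's probes Il1a (-0.016) and Csf1 (0.010). Leaving out 1 array turned genes that did not pass: Ccl9 -0.37 to 0.045, Cxcl9 -0.17 to 0.36, Cxcl11 -0.084 to 0.26, Cxcl14 -0.38 to 0.21, Il1a -0.019 to 0.22, Il1b -0.019 to 0.13, Tgfb1 -0.011 to 0.40, Csf1 -0.11 to 0.052, Cxcr4 -0.091 to 0.32 and Tnfrsf1a -0.023 to 0.12. The cause was not tested. Of 491 values of listed genes under the alternatives, 407 kept direction and side of the threshold, 38 lost and 13 gained a call, and 33 turned sign. Genes near background, such as Ccl7 and Cxcl2, are limited by signal over background.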
